A study of Arabidopsis thaliana with 9 samples.

Results

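The B-box genes followed here through leaves of Arabidopsis thaliana plants that differ at IAA26 were 8: COL1, COL2, COL9, BBX18, BBX19, BBX24 (STO), BBX25 (STH) and BBX32. They were taken by locus from 32833 genes listed, and all 8 were found and passed the filter on low counts, as did 19409 genes in all. Leaves came from 9 week old plants of the natural accession Shahdara. The labels give 3 groups: wild-type plants, plants of an IAA26 knockout line (knockout-labelled below) and plants of an IAA26 stable line (stabilised below), with 3 biological replicates each. All groups share the Shahdara background. Sources used here do not give the alleles or constructs behind the lines, how many independent lines there were, or the hour of harvest. Stabilised is thus only a short name for the stable line, and whether the IAA26 protein is stabilised there was not tested.

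B-box proteins are plant zinc finger proteins named for a domain through which they bind other proteins. Those of the CONSTANS-like group also carry a CCT domain near the end of the protein, named after CONSTANS, COL and TOC1, which contacts DNA. CONSTANS (CO) itself activates the florigen gene FT in long days, while many other members work in light signalling with the transcription factor HY5 and the ubiquitin ligase COP1, or are themselves under circadian control. IAA26 is an Aux/IAA protein, one of the repressors that hold back auxin-responsive transcription until auxin has them degraded.

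COL1 (AT5G15850) spans 5176091 to 5177897 of chromosome 5, next to CO, and COL2 (AT3G02380) 487069 to 489467 of chromosome 3. COL9 (AT3G07650) spans 2441565 to 2444532 and BBX32 (AT3G21150) 7412445 to 7413727 of chromosome 3. On chromosome 2, BBX18 (AT2G21320) spans 9126263 to 9127987 and BBX25 (AT2G31380) 13381767 to 13383470. BBX19 (AT4G38960) spans 18160903 to 18163341 of chromosome 4, and BBX24 (AT1G06040) 1828340 to 1829983 of chromosome 1. COL1, COL2, BBX24 and BBX32 are on the minus strand. The pairs of relatives aligned within the set were COL1 with COL2, BBX18 with BBX19 and BBX24 with BBX25. Their coding sequences are identical at 77.8%, 80.8% and 77.9% of aligned bases. Aligned with CO, outside the set, COL1 was identical at 79.8% and COL2 at 78.7%.

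COL1 and COL2 show how alike such relatives are and where reads can still tell them apart. The 120 aligned coding bases in which they differ least are shown from chr5:5176384-5176503 and chr3:487525-487644, both on the minus strand of the RefSeq assembly TAIR10.1, whose gene ends equal those of the deposited TAIR10 table. They lie in the part of the coding region that encodes the CCT domain, and capitals mark the 12 bases that differ.
COL1: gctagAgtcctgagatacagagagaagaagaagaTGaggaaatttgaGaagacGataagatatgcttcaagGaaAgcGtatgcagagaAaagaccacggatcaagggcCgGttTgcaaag
COL2: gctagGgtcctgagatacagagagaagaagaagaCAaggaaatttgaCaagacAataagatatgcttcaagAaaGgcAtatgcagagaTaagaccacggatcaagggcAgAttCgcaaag
The longest identical run between the aligned COL1 and COL2 coding sequences was 28 bases.

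A set of 4 motifs was searched on both strands in the 250 bases before and 50 bases after each gene start: the evening element AAAATATCT, the CCA1-binding site AAAAATCT, the G-box CACGTG and the auxin response element TGTCTC. The evening element, which clock proteins bind, was found in COL2 and BBX24, 2 of the 8 genes, and in 2.82% of 27443 protein-coding genes. Among 24 other B-box genes it was found in 3: COL10, COL14 and COL15. Of these COL10 and COL15 were called higher in the stabilised line, and COL14 was not called. The auxin response element was found in BBX25 and BBX19, 2 of 8, and in 4 of the 24 others, against 14.2% of all. Neither the CCA1-binding site (7.88% of all genes) nor the G-box (7.68%) occurred in the 8 windows, while 4 and 5 of the 24 others had them. Genes and motifs were chosen with earlier results of these data known, so these shares are description only. The upstream bases with the evening element in capitals are shown because COL2 fell furthest in the stabilised leaves and BBX24 was the most abundant of the 8. COL2 is from chr3:489475-489669, the stretch that no other annotated gene covers, and BBX24 from chr1:1829984-1830233, both on the minus strand of TAIR10.1.
COL2 upstream: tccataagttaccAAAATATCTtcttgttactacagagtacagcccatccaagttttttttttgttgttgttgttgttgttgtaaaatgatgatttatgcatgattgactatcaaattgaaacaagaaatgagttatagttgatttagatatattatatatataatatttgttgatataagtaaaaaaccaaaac
BBX24 upstream: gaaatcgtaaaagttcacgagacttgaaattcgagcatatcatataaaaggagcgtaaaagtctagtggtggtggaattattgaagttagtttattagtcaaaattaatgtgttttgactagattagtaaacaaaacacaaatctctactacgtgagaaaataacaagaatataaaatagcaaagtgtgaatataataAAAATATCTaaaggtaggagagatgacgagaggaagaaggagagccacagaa
The auxin response elements, in capitals within 30 bases, are at chr2:13381619-13381648 before BBX25 and chr4:18160909-18160938 at the start of BBX19, both on the plus strand. The BBX25 site lies within the annotated gene AT2G31370 on the same strand, with 5 bases between its end and the start of BBX25. In BBX19 the motif stands on the other strand and reads in reverse complement.
BBX25 site: aaagaaaattaaTGTCTCctccaatgtgta
BBX19 site: atgtgtttcaggGAGACAcatcaatgacct

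Exon reads per library ran from 28585976 to 45346301. In a principal component analysis of log2 CPM the first component held 44.3% of the variance. On it stabilised 1 scored -3.01 and stabilised 2 and 3 scored 87.8 and 71.5, while knockout-labelled 3 (-4.58) stood apart from 1 and 2 (-56.7 and -51.5). Wild-type libraries scored -9.05, -0.456 and -34, so that stabilised 1 and knockout-labelled 3 lay within the wild-type range. The 4 leaf markers RBCS1A, LHCB1.1, CA1 and RCA summed to 10865 to 11674 RPKM (reads per kilobase of exon, scaled to library depth) in wild-type, 8400 to 9836 in knockout-labelled and 6646 to 10879 in stabilised libraries, lowest in stabilised 1. The 2 phloem companion cell markers summed to 125 to 155, 124 to 147 and 99.1 to 132 RPKM. The 5 flower and seed markers summed to 3.43 to 5.36, 5.33 to 23.4 and 3.73 to 8.75 RPKM, with AP3 and PI high in knockout-labelled 3 alone and the seed gene CRA1 at 0 reads throughout. The 2 root markers did not exceed 0.321 RPKM in sum. IAA26 itself measured 18.7 ± 1.44 RPKM in wild-type, 15.5 ± 2.64 in knockout-labelled and 10.9 ± 1.51 in stabilised libraries (SD, n = 3). EdgeR's quasi-likelihood test called IAA26 lower in the stabilised line (log2 -0.70, SE 0.12, adjusted p = 0.0112) and not in the knockout-labelled line (-0.40, SE 0.11, adjusted p = 0.12). DESeq2 called the same fold of -0.40 in the knockout-labelled line (adjusted p = 0.0342), where it called 9.16% of all genes in either direction. A transcript level does not check a label for a lesion whose position is unknown, so the line is called knockout-labelled.

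In wild-type leaves the 8 genes differed widely in level. BBX24 was highest at 253 ± 21.2 RPKM (SD, n = 3), followed by COL1 at 71.0 ± 7.50, BBX25 at 58.4 ± 8.16, COL2 at 45.6 ± 10.4 and BBX18 at 39.7 ± 23.1. BBX19 at 12.3 ± 2.72 and BBX32 at 10.2 ± 6.91 came next, and COL9 stood at 0.301 ± 0.0625 RPKM on 23 to 27 reads per library. From COL1 to BBX18 each gene's range overlapped that of the next, as did those of BBX19 and BBX32, whereas BBX24 and COL9 lay clear of their neighbours. In the stabilised line the means ran BBX24, BBX25, COL1, BBX18, COL2, BBX32, BBX19 and COL9, so that COL2 passed below BBX18 and BBX19 below BBX32. BBX19 and BBX32 overlapped there, and COL2 overlapped BBX32 but not BBX18.

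**Figure D1:**
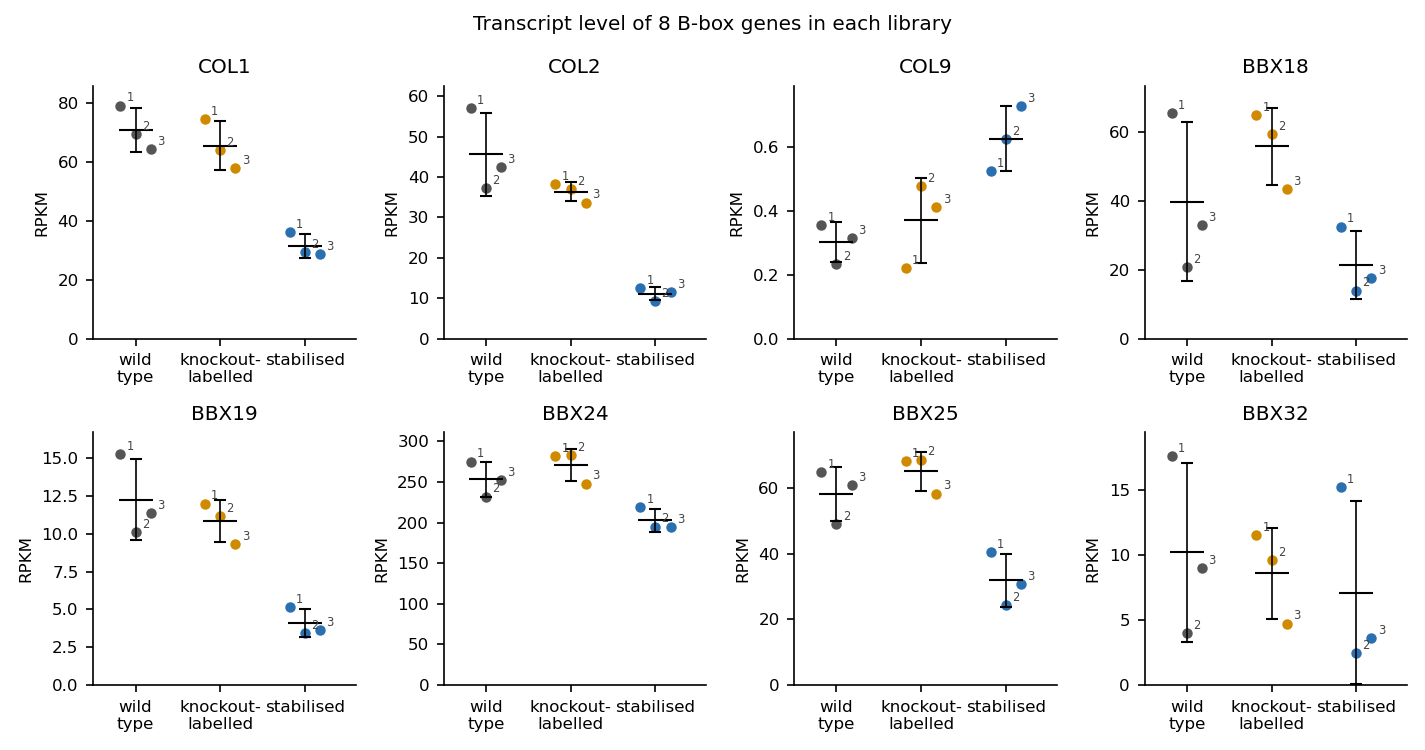
RPKM of each gene in each library (points, numbered by replicate) with the mean and SD of 3 libraries per group (bars); each vertical axis starts at 0 and has its own scale. RPKM is scaled to library depth alone. The stabilised libraries lie below both other groups for COL1, COL2, BBX19, BBX24 and BBX25, while BBX18 and BBX32 spread widely within groups.

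In the stabilised leaves 4 of the 8 genes were lower than in the wild type: COL1, COL2, BBX19 and BBX25. They fell to between 25.6% and 57.3% of the wild-type level in the fit. EdgeR's quasi-likelihood test called 0 of the 8 higher. Over all 19409 genes tested edgeR called 3.78% lower and 5.09% higher in this comparison. The 8 were chosen with earlier results of these data known, so shares over all genes are description only, here and below. DESeq2 called 5 of the 8 lower, adding BBX24, where it called 8.03% of all genes lower. COL9 was the 1 of 8 higher by unadjusted p under 0.05, against 14.4% of all genes, and by DESeq2, against 9.58%, so that 1 of 8 is near the share over all genes. The median log2 fold change of the 8 was -0.83, with 7 below 0, against 0.01 over all genes. By RPKM, 5 of the 8 had stabilised values entirely below the wild-type values, as had 16.1% of all genes.

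COL2, a close relative of CO whose transcript cycles with a peak near dawn, changed most. It measured 57.2, 37.3 and 42.4 RPKM in wild-type libraries, 38.3, 37.0 and 33.7 in knockout-labelled ones and 12.4, 9.29 and 11.6 in stabilised ones. The stabilised values lie well below all others, and those of the other groups overlap. EdgeR gave 0.256-fold against the wild type (log2 -1.97, SE 0.16, adjusted p = 0.000764), with 12 alternatives between -2.10 and -1.76.

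COL1, likewise a dawn-phased relative of CO, stood at 79.2, 69.4 and 64.4 RPKM in wild-type libraries, 74.5, 64.0 and 58.1 in knockout-labelled ones and 36.2, 29.4 and 28.8 in stabilised ones. Again the stabilised libraries do not reach the others. The fit gave 0.467-fold (log2 -1.10, SE 0.12, adjusted p = 0.00217). Only 16.9% to 21.4% of COL1 exon reads were unique, and an annotated noncoding gene on the opposite strand, AT5G15845, covers all 1807 bases of COL1. Reads of the pair that are not unique cannot be told apart, since the sources used here do not say whether counting used strand. How reads were counted as unique is not given either. AT5G15845 was counted at 268 to 337 reads in the wild type and 101 to 170 in the stabilised line (log2 -0.80, SE 0.20, adjusted p = 0.0435). Only 36 to 103 of its reads per library were unique, and whether its lower count is its own or that of COL1 was not tested. On unique reads alone, COL1 gave -1.16 (adjusted p = 0.00233).

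COL2 overlaps 2 genes on the opposite strand as well, over 771 and 688 bases. Its neighbour AT3G02370 had 208 to 287 reads in the wild type and 176 to 199 in the stabilised line (log2 0.02, adjusted p = 0.929), and AT3G02390 had 5 to 14 and 6 to 13 reads. Unique reads, 66.2% to 71% of those of COL2, gave -1.99 (adjusted p = 0.000715).

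BBX19, which delays flowering by binding CO and favours hypocotyl growth, stood at 15.3, 10.1 and 11.4 RPKM in wild-type libraries, 12.0, 11.2 and 9.34 in knockout-labelled ones and 5.17, 3.45 and 3.65 in stabilised ones. No stabilised library came near the other 6. The fit gave 0.348-fold against the wild type (log2 -1.52, SE 0.18, adjusted p = 0.00334). BBX18, its relative and also a promoter of hypocotyl growth, had 65.4, 20.8 and 32.9 RPKM in wild-type libraries, 64.9, 59.4 and 43.4 in knockout-labelled ones and 32.5, 13.9 and 17.6 in stabilised ones. Wild-type and stabilised values overlap here, and the difference did not pass the test (log2 -0.85, SE 0.42, adjusted p = 0.237, 95% interval -1.81 to 0.12). Without wild type 1, the highest library, the log2 value was -0.27 (adjusted p = 0.657).

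BBX25, a repressor of seedling photomorphogenesis that binds HY5, stood at 65.0, 49.2 and 60.9 RPKM in wild-type libraries, 68.3, 68.8 and 58.4 in knockout-labelled ones and 40.5, 24.3 and 30.9 in stabilised ones. The stabilised values lie below all others, while those of the other groups overlap. Against the wild type the fit gave 0.573-fold (log2 -0.80, SE 0.15, adjusted p = 0.0187). That call is the weakest of the 4. It was lost without wild type 1 (adjusted p = 0.0578), wild type 3 (0.0622), stabilised 2 (0.0577) or stabilised 3 (0.057), and in a fit of only the 2 groups (0.0661), with log2 values of -0.81 to -0.69.

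BBX24, which acts with BBX25 in the same repression and is bound by COP1, stood at 275, 232 and 252 RPKM in wild-type libraries, 282, 283 and 248 in knockout-labelled ones and 219, 195 and 194 in stabilised ones. Stabilised values were the lowest in RPKM, which is scaled to depth alone. In the fit, with the further scaling described below, the step was small and edgeR did not call it (log2 -0.24, SE 0.10, adjusted p = 0.154, 95% interval -0.46 to -0.02). DESeq2 called the same fold of -0.24 (adjusted p = 0.043). BBX24 encloses the antisense gene AT1G06045, which was listed at 0 reads in all 9 libraries, and 87.7% to 90% of BBX24 reads were unique.

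BBX32, a repressor of light responses that binds other B-box proteins, had 17.6, 3.97 and 8.98 RPKM in wild-type libraries, 11.5, 9.57 and 4.72 in knockout-labelled ones and 15.2, 2.46 and 3.61 in stabilised ones. Libraries of 1 group differed more than groups did (log2 -0.51, SE 0.72, adjusted p = 0.687, 95% interval -2.16 to 1.14). Without stabilised 1 the value was -1.61 (adjusted p = 0.111), and without wild type 1 it was 0.16.

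COL9, which delays flowering by lowering CO and FT transcripts, was the 1 gene with the opposite sign. It was counted with 27, 23 and 26 reads in wild-type libraries, 16, 38 and 32 in knockout-labelled ones and 33, 44 and 59 in stabilised ones, which corresponds to 0.356, 0.233 and 0.313, then 0.220, 0.477 and 0.411, then 0.524, 0.625 and 0.727 RPKM. The stabilised values lie above the others in RPKM, while the read counts of the stabilised and knockout-labelled libraries overlap. EdgeR did not call the difference (log2 1.15, SE 0.35, adjusted p = 0.0772), and it passed without stabilised 1 (1.31, adjusted p = 0.0482) and with DESeq2 (1.16, adjusted p = 0.0267).

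**Figure D2:**
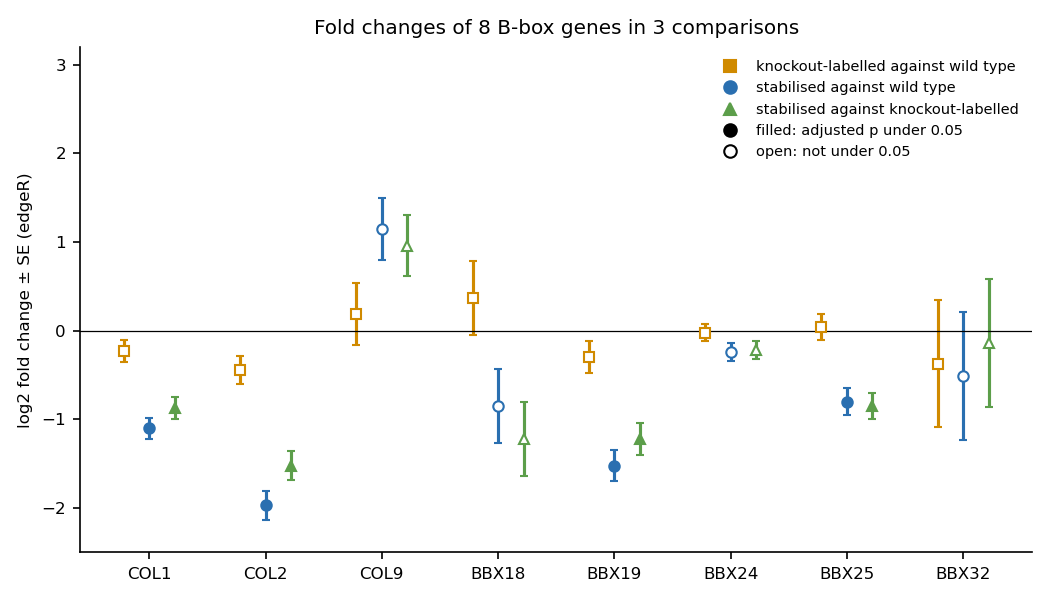
Log2 fold change of each gene with its standard error from edgeR in the 3 comparisons, with filled symbols for an adjusted p under 0.05 and open symbols otherwise. COL1, COL2, BBX19 and BBX25 are filled in both comparisons of the stabilised line, and no gene is filled for the knockout-labelled line against the wild type.

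In the knockout-labelled leaves edgeR's quasi-likelihood test called 0 of the 8 genes, where it called 1.66% of all genes in either direction. DESeq2 likewise called 0 of the 8, and 9.16% of all genes. COL2 was the 1 of 8 with an unadjusted p under 0.05, against 19.6% of all genes, with a log2 fold change of -0.44 (SE 0.16, adjusted p = 0.177, 95% interval -0.80 to -0.08). COL1 gave -0.23 (interval -0.50 to 0.04) and BBX19 -0.30 (interval -0.71 to 0.11). BBX24 at -0.02 (interval -0.24 to 0.20) and BBX25 at 0.04 (interval -0.31 to 0.39) lay nearest to 0. The widest intervals were those of BBX18 at 0.37 (interval -0.58 to 1.33), COL9 at 0.19 (interval -0.61 to 0.99) and BBX32 at -0.37 (interval -2.01 to 1.27). The sign of BBX24 turned to 0.10 with scaling by library totals alone. The median over the 8 was -0.12 and over all genes 0.00, and by RPKM 0 of the 8 had knockout-labelled values entirely above or below the wild-type values, as had 31.7% of all genes.

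Set directly against the knockout-labelled line, with the stabilised libraries shared between both comparisons, COL1 gave -0.87 (SE 0.12, adjusted p = 0.0134), COL2 -1.52 (SE 0.16, adjusted p = 0.00999), BBX19 -1.22 (SE 0.18, adjusted p = 0.0171) and BBX25 -0.85 (SE 0.15, adjusted p = 0.0264) on the log2 scale. These 4 of 8 were called lower, against 2.09% of all genes, and 0 of 8 were called higher, against 4.87%. As the 8 were chosen with earlier results of these data known, the shares do not test the set. COL9 was the 1 of 8 higher by unadjusted p under 0.05 (0.96, adjusted p = 0.11), against 16.6% of all genes. DESeq2 called 0 of 8 higher, against 11.4% of all genes, and 5 of 8 lower, against 7.38%. BBX18 came to -1.22 (SE 0.42, adjusted p = 0.103), and its stabilised values of 32.5, 13.9 and 17.6 RPKM lay below the knockout-labelled ones. It was called without stabilised 1 (-1.57, adjusted p = 0.0406) and by DESeq2 (-1.22, adjusted p = 0.0267). By RPKM 6 of the 8 had stabilised values entirely below the knockout-labelled values, as had 26.4% of all genes. Without knockout-labelled 1 or 2, 0 of the 8 were called, but nearly all calls of the comparison were lost then: 3 and 8 genes were called over the whole table in place of 1351. The log2 values without 1 and without 2 were -0.77 and -0.91 for COL1, -1.48 and -1.54 for COL2, -1.14 and -1.22 for BBX19 and -0.81 and -0.83 for BBX25. Without stabilised 2, when 158 genes were called in all, 2 of the 8 were called, since BBX19 (-1.17, adjusted p = 0.0644) and BBX25 (-0.73, adjusted p = 0.0777) were lost, and without stabilised 3, with 489 genes called in all, BBX25 was lost (-0.84, adjusted p = 0.0621).

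Leaving out stabilised 1 or knockout-labelled 3, which stood apart, did not end the calls given next, unlike leaving out knockout-labelled 1 or 2. Without stabilised 1, more genes were called against the wild type over the whole table, 3786 in place of 1721. The log2 fold changes against the wild type were then -1.15 for COL1, -1.99 for COL2, -1.66 for BBX19 and -0.94 for BBX25. Without knockout-labelled 3, the library with high AP3 and PI, 869 genes were called against the knockout-labelled line in place of 1351. The log2 fold changes of the same 4 genes were then -0.93, -1.55, -1.30 and -0.90, each with an edgeR adjusted p of at most 0.0419. In 5 of the 8 genes (COL1, COL2, BBX18, BBX19 and BBX32) the library numbered 1 was the highest of its group in all 3 groups, as it was for 6.16% of all genes tested. In whole leaves, fewer cells that express a gene and less RNA per cell cannot be told apart.

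Ratios between relatives within a library were also compared. The ratio of COL2 to COL1 in RPKM was 0.722, 0.537 and 0.657 in wild-type libraries, 0.514, 0.578 and 0.58 in knockout-labelled ones and 0.341, 0.316 and 0.403 in stabilised ones. That of BBX25 to BBX24 was 0.237, 0.212 and 0.242, then 0.242, 0.243 and 0.236, then 0.185, 0.125 and 0.16. For both ratios all stabilised values lay below all others, and an exact two-sided permutation test gave p = 0.1 against each group, the smallest p that 3 against 3 allows. Knockout-labelled against wild type gave exact p = 0.3 for COL2 to COL1 and p = 0.4 for BBX25 to BBX24. The ratio of BBX19 to BBX18 was 0.356 ± 0.125 for wild-type, 0.196 ± 0.0166 for knockout-labelled and 0.205 ± 0.0445 for stabilised libraries (SD, n = 3), with exact p = 0.2 for stabilised against wild type, p = 0.1 for knockout-labelled against wild type and p = 0.8 between the lines.

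Intron reads gave a second readout of BBX25, whose transcript has 3 exons. They made up 4.68%, 3.85% and 3.55% of its gene reads in wild-type libraries, 5.14%, 4.66% and 4.46% in knockout-labelled ones and 2.42%, 2.13% and 2.46% in stabilised ones, on 115 to 149, 131 to 166 and 23 to 39 intron reads. The stabilised share lay below all others, while the share over all genes was 4.49% ± 0.613, 4.46% ± 0.495 and 4.54% ± 0.485 in the 3 groups (SD, n = 3). BBX19 had 6.42% ± 0.670, 6.51% ± 0.663 and 4.48% ± 1.16 on as few as 8 reads, and COL2 went the other way with 3.13% ± 0.0249, 3.44% ± 0.691 and 4.47% ± 0.952. The exact permutation p for stabilised against wild type was 0.1 for BBX25, BBX19 and COL2, 0.2 for BBX24 and 0.8 for BBX18. Adjusted over 15 such tests no p was under 0.25. COL1, COL9 and BBX32 had at most 5 intron reads in a library.

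**Figure D3:**
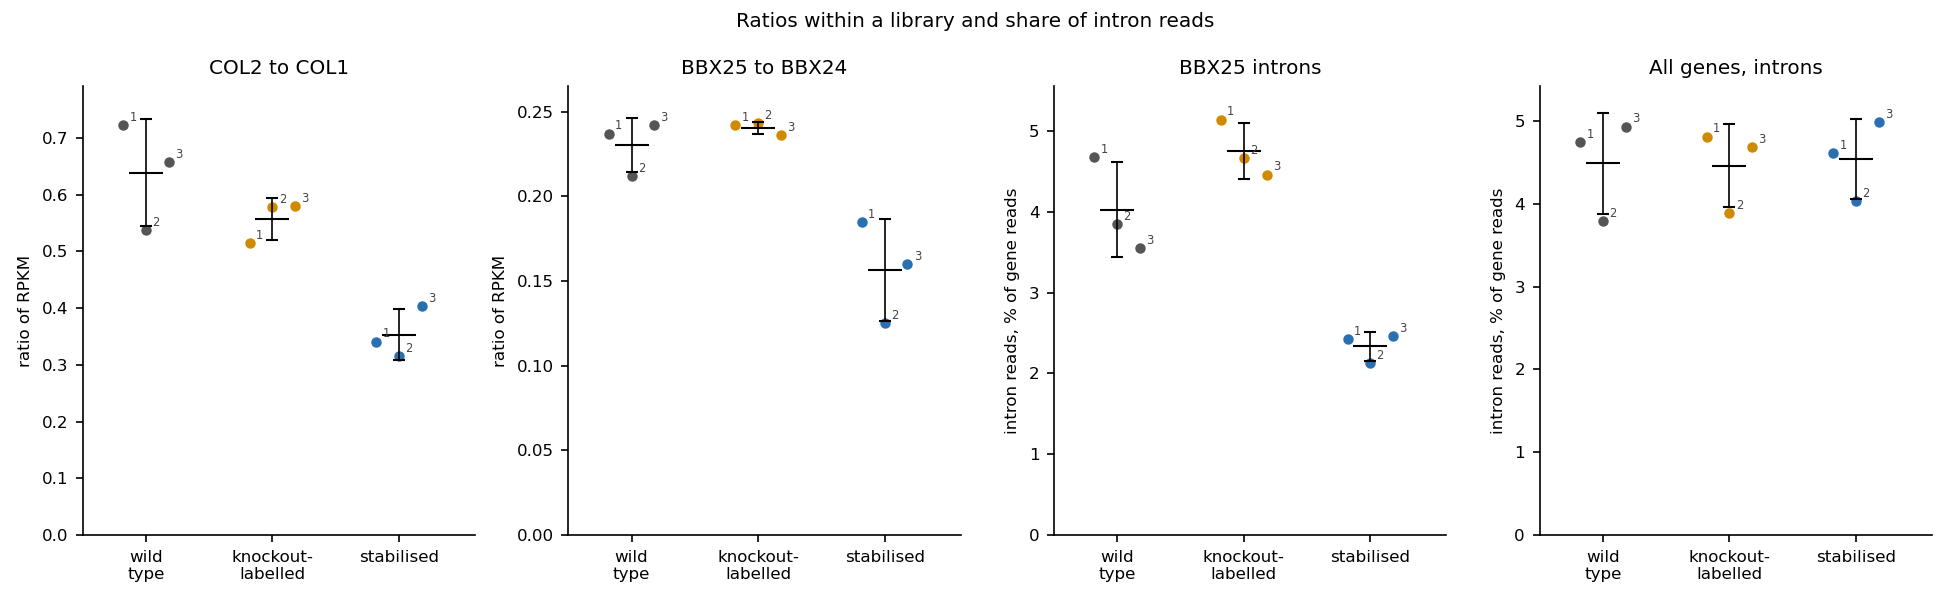
Left, ratios of RPKM within each library for COL2 to COL1 and BBX25 to BBX24; right, intron reads as a percentage of gene reads for BBX25 and over all genes. Points are libraries numbered by replicate, bars the mean and SD of 3, and the stabilised points are lowest in the first 3 panels while the groups overlap in the last.

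Of the 24 other B-box genes 20 were tested, and those called in the stabilised line were all higher. COL10 went from 1.04 ± 0.239 to 2.67 ± 0.197 RPKM (SD, n = 3, log2 1.44, adjusted p = 0.00893), COL13 from 8.32 ± 2.82 to 21.3 ± 7.26 (1.42, adjusted p = 0.0163) and COL15 from 5.49 ± 1.16 to 18.1 ± 7.21 (1.83, adjusted p = 0.0103). BBX22, a promoter of seedling photomorphogenesis that COP1 marks for degradation, went from 12.2 ± 3.56 to 40.3 ± 7.55 RPKM (1.79, adjusted p = 0.00295), and BBX29 from 6.07 ± 2.42 to 16.3 ± 2.25 (1.51, adjusted p = 0.015). That makes 5 of 20 higher, against 5.09% of all genes, and 0 of 20 lower, against 3.78%. A count of 0 of 20 lower is thus near the share over all genes. The median of the 20 was 0.16. By unadjusted p under 0.05, 1 of the 20 was lower, against 12.7% of all genes. DESeq2 also called 5 higher and 0 lower, against 9.58% and 8.03% of all genes. COL13 was lost without wild type 1, and BBX29 without wild type 3 or stabilised 2.

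BBX22 was also the 1 of 20 called in the knockout-labelled line, where 1.66% of all genes were called in either direction. It had 33.2 to 46.2 RPKM there against at most 16.4 in any wild-type library (log2 1.65, SE 0.21, adjusted p = 0.0175). It was lost without knockout-labelled 1 (1.56, adjusted p = 0.0891) or 2 (1.60, adjusted p = 0.0837). COL13 at 20.0 ± 3.36 RPKM (1.15, adjusted p = 0.0717) and BBX29 at 14.5 ± 1.75 (1.14, adjusted p = 0.0806) were not called there by edgeR. DESeq2 called 5 of 20 in that line, BBX22, BBX28, BBX29, COL13 and COL14, against 9.16% of all genes. Between the lines edgeR did not call BBX22 (0.14), COL13 (0.27) or BBX29 (0.37). Against the knockout-labelled line, COL10 (1.28, adjusted p = 0.0235) and COL15 (1.59, adjusted p = 0.0268) were higher in the stabilised line. These were 2 of 20, against 4.87% of all genes, and 0 of 20 were lower, against 2.09%. COL10 lost that call without knockout-labelled 1 or 2 or stabilised 2 or 3, and COL15 without any 1 of the knockout-labelled libraries. CO, the best known gene of the family, was counted at 14 to 53 reads per library and 0.345 ± 0.0526, 0.403 ± 0.0724 and 0.251 ± 0.144 RPKM in the 3 groups, and was not called.

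**Figure D4:**
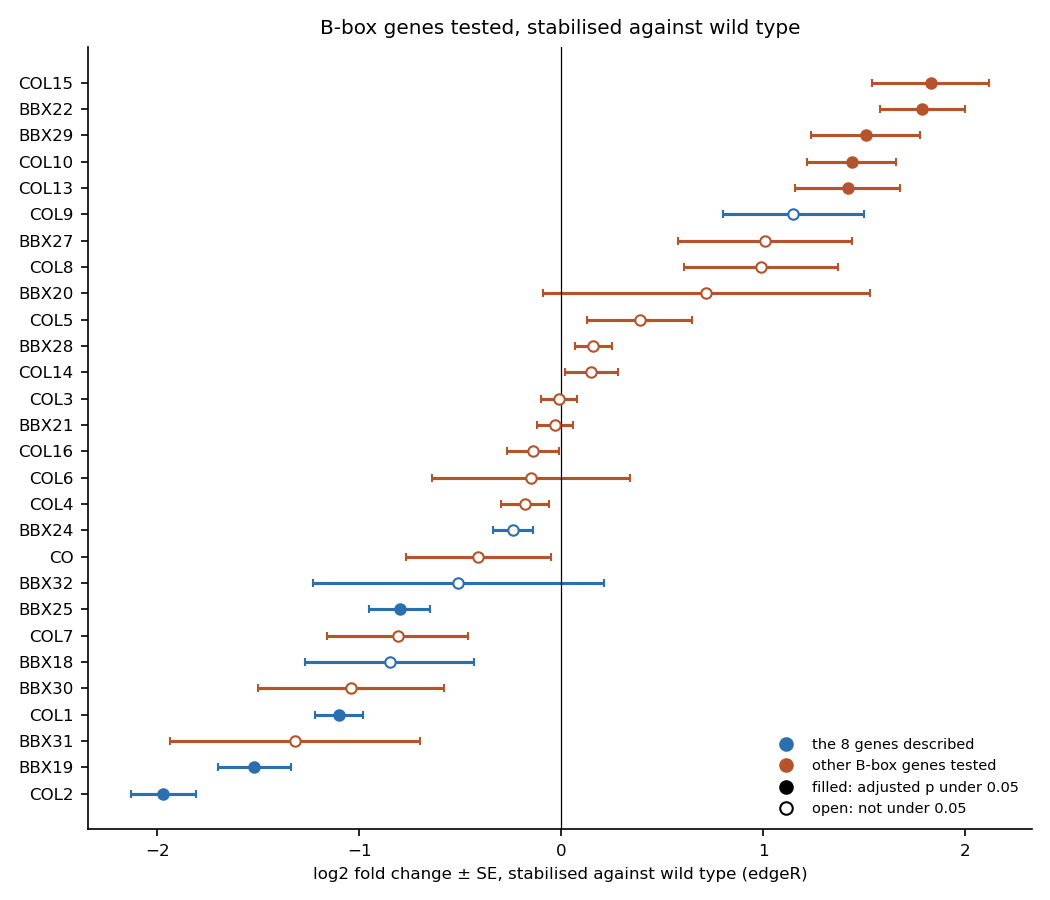
Log2 fold change with its standard error from edgeR, stabilised against wild type, for the 28 B-box genes tested, sorted by value; filled symbols have an adjusted p under 0.05. Filled symbols below 0 are COL1, COL2, BBX19 and BBX25, and those above 0 are COL10, COL13, COL15, BBX22 and BBX29.

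Proteins that work with B-box factors in light signalling moved in part. Of 19 such genes 4 were lower and 2 higher in the stabilised line, against 3.78% and 5.09% of all genes. Their median was -0.19, against 0.01 over all genes. HY5 had 23.6, 10.7 and 15.5 RPKM in wild-type libraries, 19.7, 21.3 and 11.7 in knockout-labelled ones and 7.61, 3.61 and 4.82 in stabilised ones (log2 -1.58 against wild type, adjusted p = 0.0311, and -1.54 against knockout-labelled, adjusted p = 0.0406, the latter lost without knockout-labelled 1 or 2 or stabilised 2 or 3). COP1 fell from 29.7 ± 2.76 to 20.7 ± 4.01 RPKM (-0.45, adjusted p = 0.0414), and PIF3, a light-labile bHLH factor, from 9.51 ± 1.11 to 4.66 ± 0.581 (-0.95, adjusted p = 0.00248). UVR8, the UV-B receptor, rose from 51.0 ± 1.08 to 60.0 ± 6.54 RPKM (0.31, adjusted p = 0.0301). HY5, COP1 and UVR8 each lost the call without wild type 1 or 3 or stabilised 2 or 3, and UVR8 also without wild type 2. In the knockout-labelled line PIF3 was the 1 of 19 called, against 1.66% of all genes in either direction. It stood there at 5.65 ± 0.104 RPKM (-0.86, adjusted p = 0.0175), a call lost without wild type 3 or knockout-labelled 1 or 2.

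Among 11 genes of photoperiodic flowering, 3 were higher and 3 lower in the stabilised line, against 5.09% and 3.78% of all genes. Their median was -0.35, against 0.01 over all genes. FKF1, the blue-light receptor that removes repressors of CO, stood at 0.140 ± 0.0246 RPKM in wild-type, 0.821 ± 0.129 in knockout-labelled and 6.12 ± 0.596 in stabilised libraries (log2 5.52, adjusted p = 1.89e-05, and 2.43, adjusted p = 0.0035, against wild type). CDF2 and CDF5, repressors of CO, fell to 5.85 ± 1.41 and 5.38 ± 1.27 RPKM from 18.1 ± 4.11 and 10.5 ± 1.72 (-1.56, adjusted p = 0.00377, and -0.90, adjusted p = 0.0382), and the co-repressor TPL fell from 44.9 ± 5.73 to 28.7 ± 4.91 (-0.57, adjusted p = 0.0299). The CDF5 and TPL calls were each lost without any of wild type 1, wild type 3, stabilised 2 or stabilised 3, and that of CDF5 also without wild type 2. Against the knockout-labelled line FKF1 was higher (3.09, adjusted p = 0.00181), and CDF3 (-0.69, adjusted p = 0.031) and the FT relative TSF (-1.23, adjusted p = 0.0426) were lower, both calls being lost without knockout-labelled 1 or 2 or stabilised 2 or 3. In the knockout-labelled line 1 of 11 was higher, FKF1, and 0 lower, against 1.66% of all genes in either direction.

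Of 14 circadian clock genes 7 were higher and 3 lower in the stabilised line, against 5.09% and 3.78% of all genes. Against wild type the knockout-labelled line had 3 higher and 1 lower, against 1.66% of all genes in either direction. Against the knockout-labelled line the stabilised line had 5 higher and 4 lower, against 4.87% and 2.09% of all genes. LHY, a dawn-phased repressor, had 140, 83.1 and 114 RPKM in wild-type libraries, 35.2, 34.4 and 22.8 in knockout-labelled ones and 11.0, 6.50 and 7.23 in stabilised ones (log2 -3.71, adjusted p = 0.000472, and -1.99, adjusted p = 0.0175, against wild type). The latter call was lost without wild type 3 or knockout-labelled 1 or 2. PRR5, a repressor that peaks in the afternoon, went from 0.468 ± 0.0414 to 3.44 ± 0.606 and 13.6 ± 1.87 RPKM (4.93, adjusted p = 1.89e-05, in the stabilised line). In the stabilised line PRR3 reached 6.37 ± 1.15 RPKM from 1.36 ± 0.237 (2.30, adjusted p = 0.000712) and ELF3 7.76 ± 1.02 from 3.03 ± 0.330 (1.43, adjusted p = 0.000797). Knockout-labelled libraries stood at 3.64 ± 0.713 and 6.78 ± 1.07 RPKM. EdgeR called both higher there than in wild type (1.30, adjusted p = 0.0206, and 1.04, adjusted p = 0.0164), calls lost in 4 and 2 of 12 alternatives. Between the lines PRR3 was called (1.00, adjusted p = 0.025) and ELF3 was not (0.39, adjusted p = 0.0807). The part of the clock genes in the B-box differences was not tested.

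Over the 9 libraries, as a description of log2 CPM among 16781 other genes that averaged 1 RPKM or more, the pattern most like that of COL2 was found for UGT1 (Pearson r 0.990) and HESO1 (0.985). COL1 was followed by AT1G79160 and CPR5 (0.984 each), BBX19 by NCS1 (0.995) and SAMDC2 (0.994), and BBX25 by SWEET1 (0.995) and CYP81D5 (0.987). For BBX24 they were RP2 (0.983) and AFR (0.980), for BBX18 GLR3.4 (0.977) and AT5G55620 (0.971), for COL9 AT3G09540 (0.973) and TFCA (0.967), and for BBX32 PDX12 (0.962) and AT4G35030 (0.931). Within the set, COL2 tracked BBX19 at 0.99 and COL1 at 0.98, whereas COL9 ran against COL1 at -0.87. The points are the same 9 libraries in 3 groups, so group differences enter each r.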

How the data were processed

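The 8 genes, the lists and the motifs were chosen with earlier results of these data known. Per the labels' protocols, leaf RNA was extracted with a Qiagen RNeasy kit and libraries made with a NEB kit. The authors deposited whole-number counts of total exon, unique exon, intron, exon-exon and gene reads, per the file headers, and RPKM values, with exon length, exon number and position as other columns deposited beside them. The submitters' processing notes name TAIR10. Aligner, counter and strand setting were not given in the sources used here. Table starts count from 0: for 27443 of 27444 matched protein-coding genes they were 1 less than in the RefSeq assembly TAIR10.1, from which sequences and 1-based positions are taken. Columns were matched by sample title, leaving 0 unmatched.

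Total exon reads were filtered (filterByExpr, minimum count 10, total 15, share 0.7), scaled by TMM and tested with the quasi-likelihood test of edgeR 4.0.16 (R 4.3.3), all 9 libraries in 1 fit with a mean per group. RPKM values and ranges lack the TMM factors. These were 0.9881 to 0.9986 in wild-type, 1.04 to 1.103 in knockout-labelled and 0.8759 to 1.02 in stabilised libraries. A gene was called at a p of 0.05 after Benjamini-Hochberg adjustment over 19409 genes, and the fit was tested on simulated data. SE is the log2 fold change over the square root of F, and 95% intervals use that SE with a t quantile. Alternatives were library totals alone, DESeq2 1.42.0, no filter, unique reads, only the 2 groups, replicate block, and each library left out. Libraries were not treated as paired, since no label ties a replicate number to a shared batch and not every pair correlated. Named genes are the 8, other B-box genes called, up to 4 called genes per list and comparison with the smallest p, IAA26, and the 2 most alike genes per member with a mean of at least 1 RPKM. Markers and library facts were named outside that rule, as were overlapping genes and CO, chosen after their values were seen. Python with scipy 1.17.1 and Biopython gave the permutation tests and alignments.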

Additional observations from a re-analysis of the deposited data

How the results depend on the processing

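Counts of calls over the 8 genes and over the other B-box genes stayed within 1.5 times their value in 90 of 108 comparisons with an alternative, and log2 fold changes of the named genes kept direction and side of the threshold in 614 of 732. DESeq2 called 1 of the 8 higher in the stabilised line against wild type (COL9), and of the other B-box genes 5 in knockout-labelled against wild type where edgeR called 1, and 7 in stabilised against knockout-labelled where edgeR called 2. Over all genes it called 1778, 3418 and 3641 in knockout-labelled against wild type, stabilised against wild type and stabilised against knockout-labelled, where edgeR called 322, 1721 and 1351. With only the 2 groups in the fit, other B-box genes called were 3 in stabilised against wild type and 1 in stabilised against knockout-labelled, and all genes called were 297, 615 and 703. Leaving out 1 library gave 0 to 1 of the 8 higher and 3 to 4 lower in stabilised against wild type, 0 to 5 lower in stabilised against knockout-labelled, and other B-box genes called of 0 to 2, 4 to 6 and 0 to 6 in the 3 comparisons. All genes called then ranged from 10 to 144, from 584 to 3786 and from 3 to 5241.

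Signs turned only for values that were not called. In knockout-labelled against wild type BBX24 gave 0.10 with library totals alone and -0.08 to 0.05 with 1 library left out, BBX25 -0.07 to 0.14, BBX32 -0.77 to 0.30 and COL9 -0.01 to 0.45. BBX32 ranged from -1.61 to 0.16 in stabilised against wild type and from -1.24 to 0.24 in stabilised against knockout-labelled. Scaling by library totals alone moved the median log2 fold change of all genes to 0.12, -0.07 and -0.19, and the share of higher calls from 55.9% to 68.5%, 57.4% to 52.7% and 69.9% to 42%. The cause of these changes was not tested.

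Deviations of libraries with the same number correlated at -0.439 to 0.516, so that pairing is not established, although numbers 1 and 3 gave 0.492 and 0.516 in stabilised against knockout-labelled. With the replicate number as a block, BBX18 was also called in stabilised against knockout-labelled (log2 -1.30, adjusted p = 0.0438), so that 5 of the 8 were called lower, and CDF5 and COP1 (stabilised against wild type) and TSF lost their calls. All genes called under the block were 134, 1537 and 1232. COL9, at 16 to 59 reads a library, is limited by depth, and counting without stated strand limits COL1, COL2, BBX24 and BBX25, which overlap antisense genes. The 4 differ in extent, with unique reads of 16.9% to 21.4% for COL1, 66.2% to 71% for COL2 and 87.7% to 90% for BBX24. For BBX25 they were 100%, and 48 of its 1704 bases are shared.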
